A study of Rattus norvegicus with 4 samples.

Results

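Kinesins are motor proteins that hydrolyse ATP to move along microtubules or to take microtubule ends apart. Mitotic kinesins build the spindle, align chromosomes and complete cytokinesis. Transport kinesins carry vesicles, endosomes and mitochondria, and ciliary kinesins serve the assembly, signalling or movement of cilia. In heart muscle, microtubule motors position mitochondria and deliver membrane proteins, and cardiomyocytes largely leave the cell cycle soon after birth. The kinesin genes described here are the protein-coding rows of the deposited table whose symbol is Kif followed by a number, 37 of 16290 genes. They were divided by known role into 11 mitotic, 12 transport, 9 ciliary and 5 other genes. The symbol rule also takes in Kif1bp, which encodes a kinesin-binding protein and not a motor, so 1 of the 5 other genes is no kinesin. Cenpe, Stard9 and the Kifc genes are kinesins that the symbol rule leaves out, and they are given with the partner genes.

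RNA was sequenced from neonatal rat cardiomyocytes at postnatal day 3, kept in culture medium with 5% horse serum. The Pdk3 group was infected with an adenovirus, a vector that brings a gene into dividing and resting cells, which carried Pdk3, and the Mock group was infected with a mock adenovirus. Pdk3 is a pyruvate dehydrogenase kinase, which switches off the enzyme complex that passes pyruvate to mitochondrial oxidation. Each group had 2 libraries, named Pdk3 1 and Pdk3 2 and Mock 1 and Mock 2. The labels do not name the promoter of the vectors, the share of cells that took them up, the strain, or whether the libraries came from separate cultures or animals. P-values therefore measure how far these libraries lie apart, and that spread may be technical.

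All 11 mitotic kinesins rose in the Pdk3 libraries, with log2 fold changes between 0.40 and 1.39 and a median of 0.91 (1.87-fold). Of the 12 transport kinesins, 1 rose and 1 fell, with a median of 0.00. Of the 9 ciliary kinesins, 5 could be tested, and of these Kif24 rose with a log2 fold change of 2.35 and Kif3a fell by 0.21 on the log2 scale. None of the 4 other genes tested passed (limma, a linear model fitted to all genes, adjusted p under 0.05). In all, 32 of the 37 genes reached a value of 10 in 2 libraries and were tested, 13 rose and 2 fell. Differences between the classes are described by these counts and medians and were not tested. Of the 12838 genes tested in the whole table, 22.9% passed, 11.7% with higher and 11.3% with lower values, around a median log2 fold change of -0.01. The groups did not overlap for 17 kinesin genes with higher and 7 with lower values, against 29.9% and 31.1% of the whole table. In RNA from whole cultures, fewer cells of a type and less RNA per cell cannot be told apart, and the data do not show which cells carried the mitotic transcripts.

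The carried gene Pdk3 had normalised read counts of 1218 and 1177 in the Pdk3 libraries, against 396 and 411 in the Mock libraries, a log2 fold change of 1.57 ± 0.03 (standard error, limma, adjusted p = 1.47e-06). Normalised counts summed to between 4448199 and 4476649 per library, which correspond to about 4139000 to 4707000 reads in genes. Within each group the libraries differed by less than counting noise, with a mean chi-square per gene of 0.547 for the Pdk3 pair and 0.553 for the Mock pair, where counting noise alone gives about 1. For this reason calls are given also with each p floored at counting noise, a stricter rule by which 8.37% of all genes tested were higher and 7.50% lower. The 13 higher and 2 lower genes passed that rule as well.

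The cardiomyocyte markers Myh6, Myh7, Tnnt2, Actc1 and others were high in all libraries, and their 9 measured genes summed to 19914 and 19621 in the Pdk3 libraries and to 19270 and 19102 in the Mock libraries (4 higher, 1 lower). Markers of other cells were present too. The counts of markers called stand beside 11.7% higher and 11.3% lower over the whole table. Fibroblast markers summed to 5416 and 5265 with Pdk3 and to 5484 and 5416 with Mock (0 higher and 1 lower of 7). Endothelial markers summed to 868 and 834 with Pdk3 and to 861 and 932 with Mock (0 and 1 of 5). That sum was mostly Kdr, with a log2 fold change of 0.13, while the median of the 5 was -0.24 (1 above and 4 below 0). Smooth muscle and pericyte markers summed to 2247 and 2227 with Pdk3 and to 2118 and 2067 with Mock (1 and 0 of 5). Macrophage and leukocyte markers summed to 1170 and 1117 with Pdk3 and to 1406 and 1356 with Mock (0 and 4 of 8). Neuron markers summed to 440 and 440 with Pdk3 and to 425 and 415 with Mock, Schwann cell markers to 1919 and 1899 with Pdk3 and to 2004 and 1968 with Mock, and 0 of them passed. Mesothelial markers summed to 148 and 134 with Pdk3 and to 182 and 181 with Mock (1 lower of 3 tested). No multiciliated cell marker was measured, since the listed marker Foxj1 had no row. Erythroid rows summed to 13 and 17 with Pdk3 and to 45 and 47 with Mock (2 lower of 2 tested). None of the measured markers was at 0 in all 4 libraries. Their part in the kinesin results was not tested.

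Several mitotic genes carry short promoter elements that bind cell cycle regulators in mammals. The cell cycle genes homology region (CHR, TTTGAA or TTCGAA) and the CCAAT box are found at genes expressed in G2 and mitosis, and E2F sites (TTTCCCGC, TTTGGCGC, TTTGCCGC and TTTCGCGC were searched) at genes of the G1/S transition. RefSeq promoter windows on the GRCr8 assembly, from 250 bases before to 50 after the annotated start, were matched by symbol for 29 of the 37 genes. CHR letters on either strand were found in 5 of 10 mitotic, 0 of 9 transport, 1 of 7 ciliary and 1 of 3 other genes, against 19.7% of all 33469 windows. CCAAT letters were found in 6 of 10 mitotic, 2 of 9 transport, 3 of 7 ciliary and 1 of 3 other genes, against 37.5% of all windows. E2F letters were found in 1 mitotic gene, Kif18a, and in 2.14% of all windows. A match describes letters and does not show that a factor binds. The 250 bases before the start are printed for 5 genes, 5′ to 3′ on the strand of the gene, to show how such letters lie: Kif18a (chr3:116218757-116219006, plus strand) and Kif15 (chr8:131479154-131479403, plus strand), the mitotic genes that rose most, Kif22 (chr1:191080879-191081128, minus strand), a mitotic gene that rose less, Kif24 (chr5:61423883-61424132, minus strand), and Kif5b (chr17:56185136-56185385, plus strand), a transport gene. Capitals mark CHR, CCAAT and E2F letters on either strand.
Kif18a: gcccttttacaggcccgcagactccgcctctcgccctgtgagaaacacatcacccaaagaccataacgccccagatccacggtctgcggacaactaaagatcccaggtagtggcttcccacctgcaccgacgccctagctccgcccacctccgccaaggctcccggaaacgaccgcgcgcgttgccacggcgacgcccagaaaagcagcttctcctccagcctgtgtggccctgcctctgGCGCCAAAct
Kif15: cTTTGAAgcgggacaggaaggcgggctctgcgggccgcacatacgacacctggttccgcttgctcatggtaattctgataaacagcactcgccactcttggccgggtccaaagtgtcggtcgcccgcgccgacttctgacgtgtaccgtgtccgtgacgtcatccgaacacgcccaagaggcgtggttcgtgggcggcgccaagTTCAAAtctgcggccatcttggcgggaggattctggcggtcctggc
Kif22: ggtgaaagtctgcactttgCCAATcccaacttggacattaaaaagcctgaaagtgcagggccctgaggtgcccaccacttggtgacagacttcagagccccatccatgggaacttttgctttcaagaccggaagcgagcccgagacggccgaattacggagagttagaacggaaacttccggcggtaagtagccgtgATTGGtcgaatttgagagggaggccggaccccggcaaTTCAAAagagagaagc
Kif24: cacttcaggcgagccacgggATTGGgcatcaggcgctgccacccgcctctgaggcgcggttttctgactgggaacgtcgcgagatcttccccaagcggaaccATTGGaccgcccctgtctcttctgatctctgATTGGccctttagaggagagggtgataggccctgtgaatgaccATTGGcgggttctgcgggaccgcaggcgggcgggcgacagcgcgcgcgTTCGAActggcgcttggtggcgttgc
Kif5b: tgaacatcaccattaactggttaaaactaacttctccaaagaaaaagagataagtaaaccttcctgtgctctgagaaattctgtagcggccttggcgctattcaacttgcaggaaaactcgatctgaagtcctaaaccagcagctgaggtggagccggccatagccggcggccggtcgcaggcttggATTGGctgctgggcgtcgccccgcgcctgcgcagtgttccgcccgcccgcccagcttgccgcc

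In Kif18a the capitals are an E2F match on the opposite strand, from base -10 to -3 before the start, and in Kif15 they are CHR matches, the nearer at -46 to -41. Kif22 has CCAAT letters at -231 and -53 and a CHR match at -16. Kif24 has 4 CCAAT matches, between -230 and -70, followed by the CHR letters TTCGAA at -26. Kif5b has 1 CCAAT match, at -63, and no CHR match. No window in the table was matched to Kif14, and the windows of Kif2c and Kif18b held none of these letters.

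**Figure D1:**
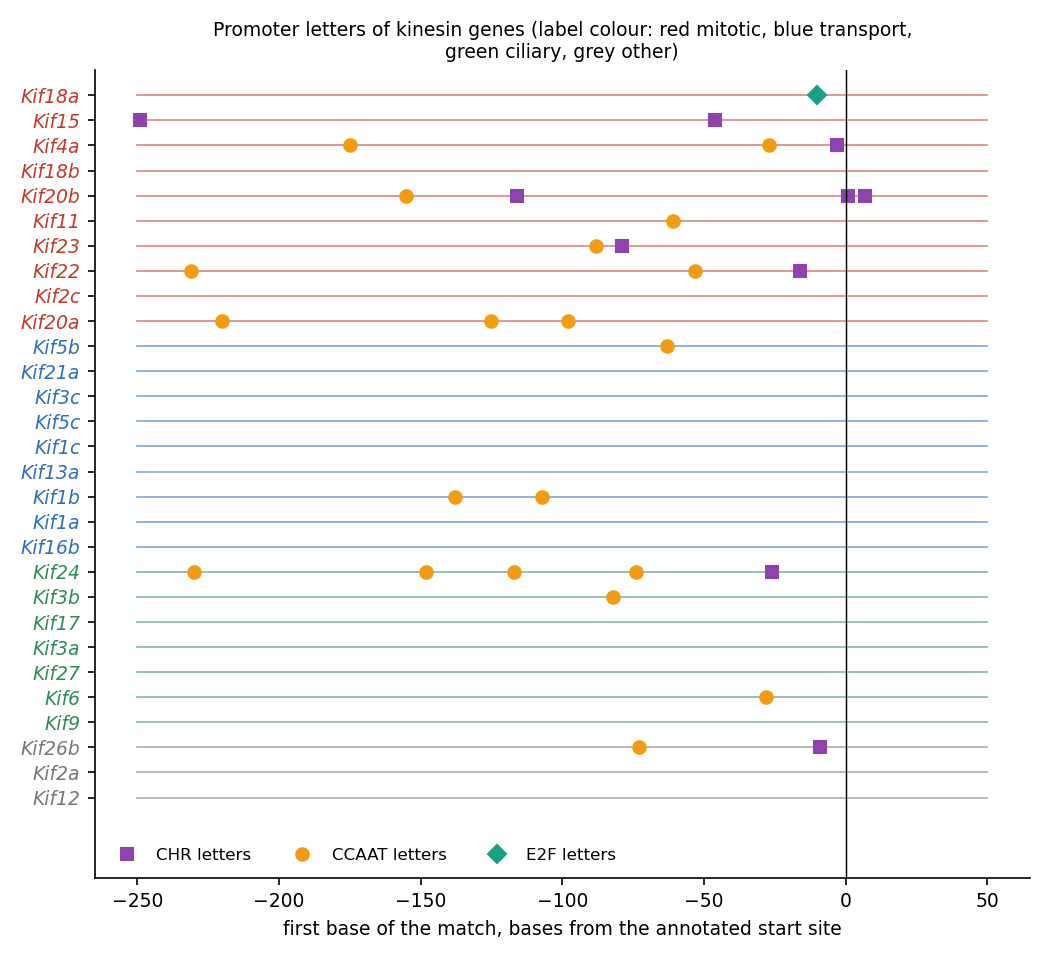
Positions of CHR, CCAAT and E2F letters (symbols) in the promoter windows of 29 kinesin genes (rows, coloured by class), as the distance in bases of the first base of each match from the annotated start site at 0. CHR squares lie on 5 of the 10 mitotic rows and on none of the 9 transport rows.

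Kif18a (ENSRNOG00000005037, chromosome 3, 100366168 to 100427030, rn6), which damps chromosome movements at the metaphase plate, had the largest log2 fold change among the mitotic kinesins. It had normalised counts of 151 and 170 in the Pdk3 libraries, against 59 and 62 in the Mock libraries. The log2 fold change was 1.39 ± 0.10 (limma, adjusted p = 0.000131). Kif15 (ENSRNOG00000060356, chromosome 8, 132032944 to 132103927, rn6), a motor that helps to keep spindles bipolar, had 202 and 223 with Pdk3, against 93 and 98 with Mock. Its log2 fold change was 1.14 ± 0.08 (limma, adjusted p = 0.000124), and the groups lay far apart for both genes. The 95% intervals of Kif18a, 1.15 to 1.63, and Kif15, 0.95 to 1.34, overlapped, so their order is not resolved. Kif15 overlaps RGD1311745 on the opposite strand over 3529 bases, and that gene had 129 and 124 with Pdk3, against 108 and 111 with Mock. The strand setting of the authors' counting is not given in the sources used here, so the part of such reads in Kif15 was not tested.

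Next stood 5 genes with nearly equal rises, between 0.88 and 0.93 on the log2 scale. Kif14, which acts at the midbody in cytokinesis, had 106 and 119 with Pdk3, against 60 and 57 with Mock (0.93 ± 0.11, limma, adjusted p = 0.00130). Kif4a, a chromosome-bound motor that also shapes the central spindle, had 372 and 428 with Pdk3, against 198 and 225 with Mock (0.92 ± 0.08, limma, adjusted p = 0.000338). Kif18b, which shortens astral microtubules, had 247 and 238 with Pdk3, against 130 and 127 with Mock (0.91 ± 0.07, limma, adjusted p = 0.000118). No library of one group came near the other group in any of the 3. Kif20b, which acts late in cytokinesis, had 499 and 533 with Pdk3, against 267 and 283 with Mock (0.91 ± 0.05, limma, adjusted p = 3.76e-05). Kif11 (ENSRNOG00000056069, chromosome 1, 256035866 to 256088299, rn6), the motor that pushes spindle poles apart, had 508 and 536 with Pdk3, against 284 and 283 with Mock (0.88 ± 0.04, limma, adjusted p = 2.35e-05). The intervals of these 5 genes overlapped, so their order is not resolved. All 5 also met the interval of Kif15, 0.95 to 1.34. That of Kif14, 0.67 to 1.19, met that of Kif18a, 1.15 to 1.63, as well.

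The remaining 4 had smaller log2 fold changes. The intervals of Kif23, 0.53 to 0.76, Kif22, 0.47 to 0.78, and Kif2c, 0.38 to 0.74, met that of Kif14, 0.67 to 1.19. They also met that of Kif4a, 0.72 to 1.11, and those of Kif23 and Kif22 met that of Kif18b, 0.76 to 1.06. Differences from the genes above were not tested. Kif23, the motor of the centralspindlin complex, had 373 and 397 with Pdk3, against 247 and 245 with Mock (0.64 ± 0.05, limma, adjusted p = 0.000166). Kif22, a chromosome-bound motor that pushes chromosome arms outward, had 266 and 293 with Pdk3, against 183 and 179 with Mock (0.62 ± 0.07, limma, adjusted p = 0.000648). Both genes had a CHR match in the promoter window. Kif2c, which takes apart microtubules at wrongly attached kinetochores, had 236 and 244 with Pdk3, against 174 and 152 with Mock (0.56 ± 0.08, limma, adjusted p = 0.00252). Kif20a (ENSRNOG00000024428, chromosome 18, 27424328 to 27432814, rn6), which brings Aurora B to the central spindle, had 509 and 548 with Pdk3, against 414 and 384 with Mock (0.40 ± 0.05, limma, adjusted p = 0.00176). The highest Mock library of Kif20a lay below the lowest Pdk3 library, though by less than for the other mitotic genes in fold. The 95% interval of Kif20a, 0.28 to 0.53, did not meet that of Kif18a, 1.15 to 1.63, and the difference between these rises was not tested. Without an intensity trend in limma the calls of Kif2c and Kif20a ended (adjusted p = 0.0545 and 0.0633). Kif20a overlaps Cdc23 on the opposite strand over 1910 bases, and Cdc23 had 347 and 348 with Pdk3, against 331 and 345 with Mock.

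**Figure D2:**
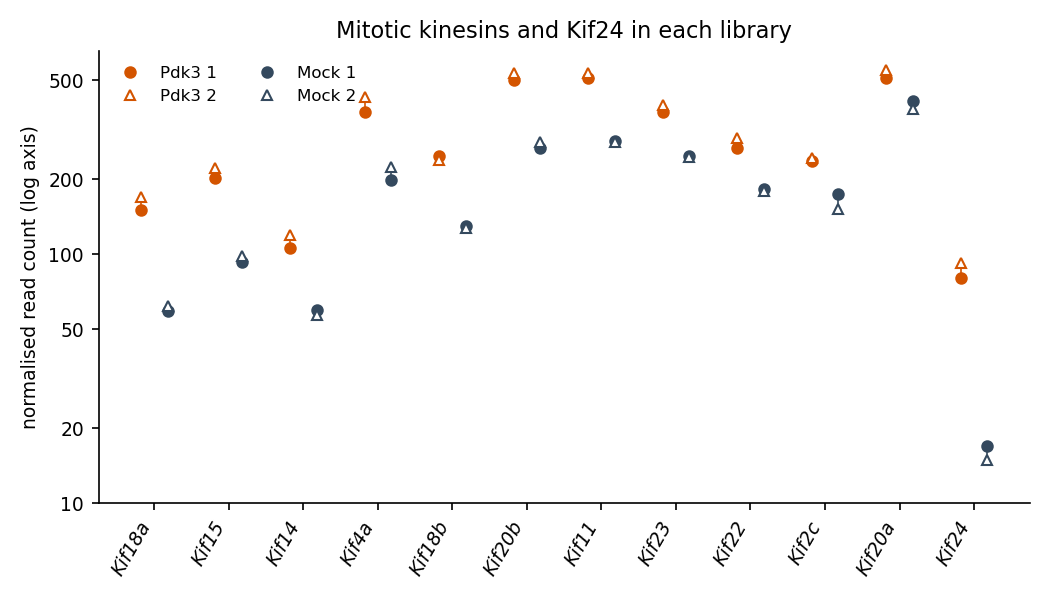
Normalised read counts (log axis) of the 11 mitotic kinesins and Kif24 in the Pdk3 libraries (left of each pair, orange) and the Mock libraries (right, dark blue), with replicate 1 as filled circles and replicate 2 as open triangles. In each gene both Pdk3 libraries lie above both Mock libraries, and Pdk3 2 lies above Pdk3 1 in all but Kif18b.

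The 11 mitotic genes summed to normalised counts of 3469 and 3729 in the Pdk3 libraries, against 2109 and 2095 in the Mock libraries, 1.71-fold. They made up 21.7% and 23.3% of the summed counts of the 37 genes with Pdk3, and 14.6% and 14.6% with Mock. Groups did not overlap for any of the 11, which was so for 29.9% of all genes tested in the upward direction. The Pdk3 libraries were not alike: Pdk3 2 was above Pdk3 1 in 10 of the 11 genes, all but Kif18b, by ratios between 0.964 and 1.15. The median log2 fold change was 0.84 without Pdk3 2 and 0.92 without Pdk3 1. With any 1 library left out, the fit has 1 residual degree of freedom and limma called 0 genes. The lone library is then assumed to vary like the pair of the other group, which lies below counting noise. An unadjusted p under 0.05 was then found for 2916 to 3347 genes, among them all 11 mitotic kinesins each time.

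Kif24 (ENSRNOG00000012735, chromosome 5, 57780389 to 57845509, rn6) is counted here as ciliary. It encodes a motor that takes apart microtubules at the mother centriole and, with Ccp110, holds back the growth of cilia. Its normalised counts were 80 and 92 in the Pdk3 libraries, against 17 and 15 in the Mock libraries, 5.38-fold. The log2 fold change of 2.35 ± 0.17 (95% interval 1.96 to 2.75, limma, adjusted p = 0.000118) exceeded that of every other kinesin tested, at a low level in the Mock libraries. Its promoter window, printed above, held both CCAAT and CHR letters, as did those of Kif4a, Kif20b, Kif22, Kif23 and Kif26b. Ccp110, its partner at the centriole, had 293 and 306 with Pdk3, against 229 and 203 with Mock (log2 fold change 0.47, limma, adjusted p = 0.00303), a call that ended without an intensity trend.

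Of the other 8 ciliary kinesins 4 could be tested, and 1 of these, Kif3a, passed. Kif3a and Kif3b form the motor of anterograde intraflagellar transport and also carry cargo in the cell body. Kif3a (ENSRNOG00000007515, chromosome 10, 38918748 to 38952785, rn6) had 314 and 316 in the Pdk3 libraries, against 367 and 364 in the Mock libraries, and fell by 0.21 on the log2 scale (standard error 0.04, limma, adjusted p = 0.0106). That call ended without an intensity trend (adjusted p = 0.0629) and was near the threshold when floored at counting noise (adjusted p = 0.0461). Kif3b had 538 and 552 with Pdk3, against 528 and 510 with Mock, and did not pass (log2 fold change 0.07, 95% interval -0.01 to 0.15, limma, adjusted p = 0.204). When scaled to ribosomal protein genes, Kif3b turned to -0.0159, the side of Kif3a, and the difference between the partners was not tested. Kif7, which organises the ciliary tip in hedgehog signalling, had 136 and 131 with Pdk3, against 132 and 135 with Mock, a log2 fold change of 0.00 with an interval of -0.18 to 0.18. Kif17 had 9 and 17 with Pdk3, against 13 and 11 with Mock, with an interval of -0.76 to 0.86, too wide to show a change of less than that size. Kif6, Kif9, Kif19 and Kif27, best known from cilia, had values between 0 and 12 in all libraries and were too low to test.

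Among the transport kinesins, Kif5b (ENSRNOG00000017466, chromosome 17, 54181419 to 54212096, rn6), the conventional kinesin heavy chain of most tissues, rose slightly. It had 1767 and 1761 in the Pdk3 libraries, against 1607 and 1639 in the Mock libraries (log2 fold change 0.12 ± 0.02, limma, adjusted p = 0.00509). The call ended without an intensity trend (adjusted p = 0.143) and when libraries were scaled to level the ribosomal protein genes (0.03, adjusted p = 0.311). Kif13b (ENSRNOG00000013089, chromosome 15, 48030973 to 48189951, rn6), a carrier of membrane vesicles, fell. It had 357 and 352 with Pdk3, against 460 and 442 with Mock (log2 fold change -0.35 ± 0.04, limma, adjusted p = 0.00116), with no overlap between the groups. Its close relative Kif13a, an endosomal motor, had 1721 and 1659 with Pdk3, against 1667 and 1673 with Mock, a log2 fold change of 0.02 with an interval of -0.04 to 0.07.

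For the larger counts among the transport genes the intervals were narrow. Kif1b, which carries mitochondria and vesicle precursors, had 3382 and 3235 with Pdk3, against 3389 and 3279 with Mock (interval -0.07 to 0.05). Kif1c, a vesicle motor, had 1827 and 1844 with Pdk3, against 1813 and 1795 with Mock (-0.02 to 0.07). Changes of the size seen in the mitotic genes lie outside both intervals. Kif21a, which slows microtubule growth, had 476 and 464 with Pdk3, against 434 and 468 with Mock (-0.05 to 0.17), and Kif21b had 110 and 110 with Pdk3, against 118 and 115 with Mock (-0.28 to 0.12). Kif16b, a motor of early endosomes, had 439 and 403 with Pdk3, against 476 and 463 with Mock. Its log2 fold change of -0.16 missed the threshold (limma, adjusted p = 0.0543) and passed it in 5 of the alternatives, with adjusted p between 0.000545 and 0.0497.

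Kif5a, Kif5c, Kif1a and Kif3c are kinesins best known from neurons. Kif5a had 45 and 42 with Pdk3, against 51 and 60 with Mock (log2 fold change -0.34, 95% interval -0.69 to 0.01), and it overlaps Dctn2 on the opposite strand over 809 bases. Kif5c had 50 and 42 with Pdk3, against 54 and 36 with Mock (interval -0.45 to 0.55). Kif1a had 137 and 147 with Pdk3, against 164 and 140 with Mock (-0.32 to 0.13), and Kif3c 150 and 147 with Pdk3, against 138 and 148 with Mock (-0.12 to 0.23). None of the 4 passed the test (limma). Of 9 measured neuron markers 6 were too low to test and 0 of the other 3, Uchl1, Tubb3 and Syt1, passed.

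The 12 transport genes together summed to 10461 and 10206 in the Pdk3 libraries, against 10371 and 10258 in the Mock libraries, 1.00-fold. When libraries were scaled to level the ribosomal protein genes, which lowered the median of all genes to -0.09, the median of the transport genes was -0.08, that of the ciliary genes -0.03 and that of the mitotic genes 0.82. Under that scaling 11 mitotic genes were still higher, 0 transport genes were higher and 5 lower, and of 12776 genes tested 942 were higher and 3604 lower.

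**Figure D3:**
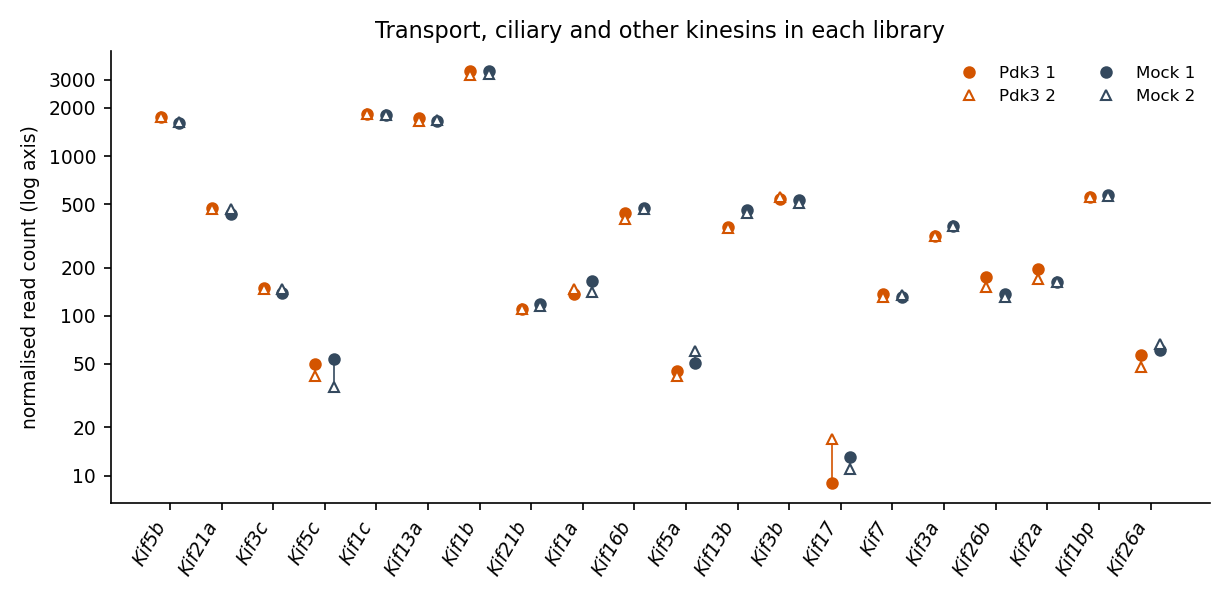
Normalised read counts (log axis) of the transport, ciliary and other kinesin genes tested, apart from Kif24, in the Pdk3 libraries (left of each pair, orange) and the Mock libraries (right, dark blue), with replicate 1 as filled circles and replicate 2 as open triangles. The 2 groups lie close together in most genes, with Kif5b higher and Kif13b and Kif3a lower in the Pdk3 libraries.

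The other genes did not pass. Kif26b, a kinesin without motor activity that takes part in signalling, had 174 and 151 with Pdk3, against 137 and 132 with Mock (log2 fold change 0.27, limma, adjusted p = 0.0699, and 0.0345 and 0.0402 in the 2 alternatives where it passed). Its relative Kif26a had 57 and 48 with Pdk3, against 61 and 67 with Mock (-0.28, interval -0.62 to 0.05). Kif2a, a microtubule depolymerase of interphase and spindle, had 197 and 170 with Pdk3, against 162 and 162 with Mock (0.17, interval -0.02 to 0.37). Kif1bp had 552 and 557 with Pdk3, against 571 and 562 with Mock (-0.03, interval -0.11 to 0.04). Kif12 had values between 3 and 6 and was not tested. RefSeq lists pseudogenes named after Kif1c, Kif4, Kif11, Kif13a and Kif18b, and how the authors' counting treated reads that fit several places is not given in the sources used here.

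**Figure D4:**
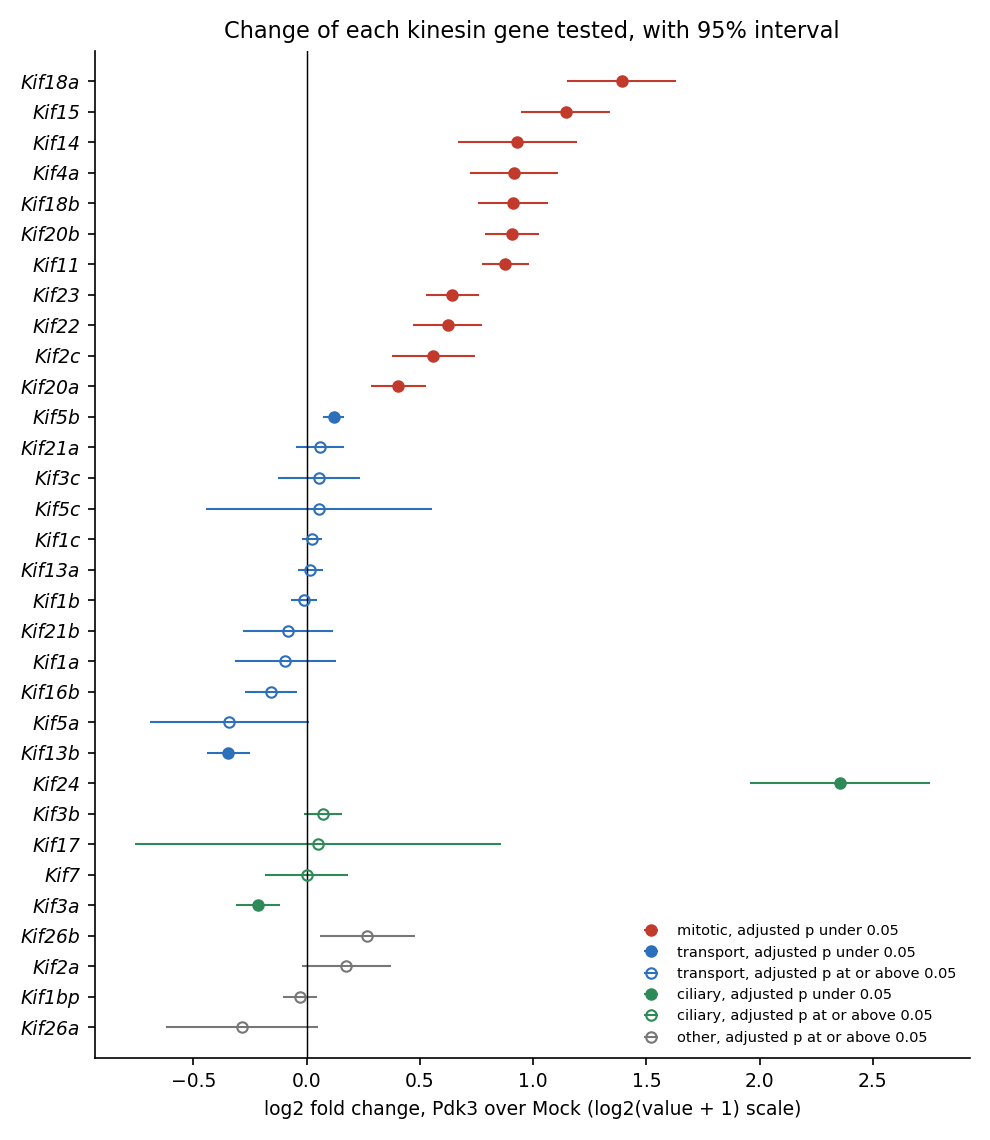
Log2 fold change of Pdk3 over Mock (points, with 95% intervals from limma) for the 32 kinesin genes tested, grouped and coloured by class. Filled points had an adjusted p under 0.05. The 11 mitotic points lie between 0.40 and 1.39 and Kif24 at 2.35, while the transport points lie between -0.35 and 0.12.

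Against all genes tested the mitotic kinesins and Kif24 lay in the upper part of the spread at their level, as the plot of change against level shows. The transport kinesins lay within the bulk of genes, Kif13b at its lower side.

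**Figure D5:**
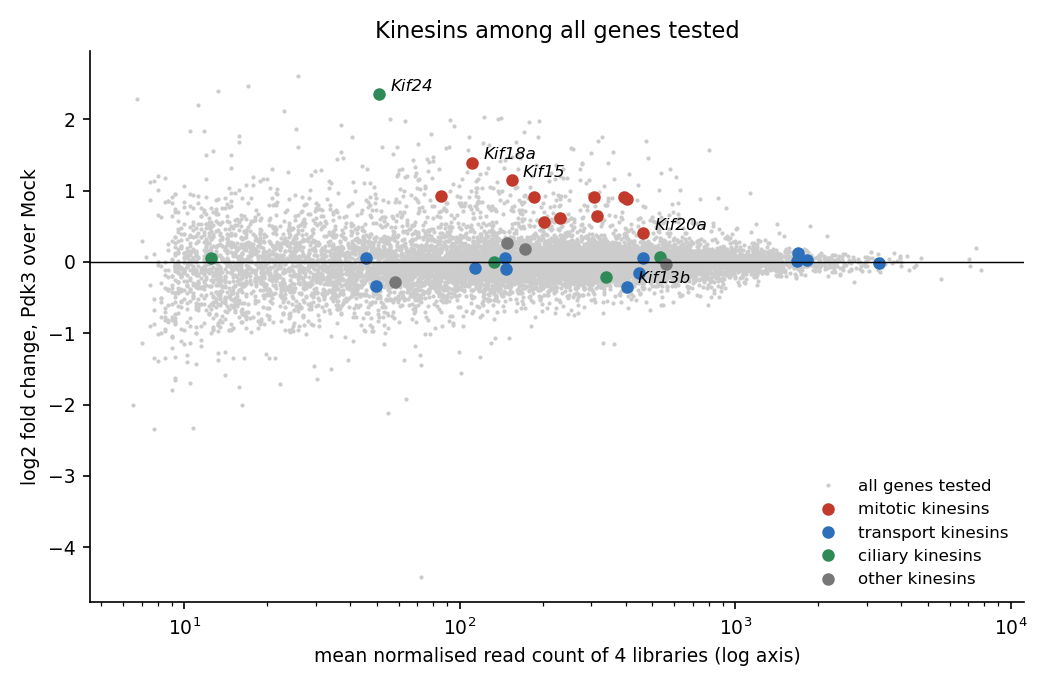
Log2 fold change of Pdk3 over Mock against the mean normalised read count of the 4 libraries (log axis) for 12838 genes (grey) and the 32 kinesin genes tested (coloured by class). Kif24 at 2.35 and the mitotic kinesins lie above most genes of similar count, and the transport kinesins lie between -0.35 and 0.12.

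Further motors, light chains and binding proteins had 11 measured genes, Kif1bp among them. Of these 2 were higher and 1 lower, beside 11.7% and 11.3% over the whole table. The higher ones were the mitotic motors Kifc1, which bundles spindle microtubules, and Cenpe, which carries chromosomes to the spindle equator. Kifc1 had 244 and 267 with Pdk3, against 135 and 153 with Mock (log2 fold change 0.82, limma, adjusted p = 0.000534). Cenpe had 651 and 689 with Pdk3, against 453 and 448 with Mock (0.57, limma, adjusted p = 8.07e-05). The lower one was the light chain Klc4, with 423 and 404 with Pdk3, against 506 and 521 with Mock (-0.31, limma, adjusted p = 0.00175), a call that ended without an intensity trend. The kinesins Stard9, Kifc2 and Kifc3 did not pass, with log2 fold changes of -0.17, -0.31 and 0.14, and are named here after their values were seen. Kifap3, the subunit that joins Kif3a and Kif3b, had 487 and 489 with Pdk3, against 533 and 517 with Mock (-0.11, limma, adjusted p = 0.0696), and is named here after its values were seen.

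Partners of the mitotic kinesins rose with them, 16 of 16 measured genes, with a median log2 fold change of 0.64, beside 11.7% higher over the whole table. The list was chosen with earlier results of these data known, so its count is a description and not an independent test. Floored at counting noise 15 of 16 were higher, beside 8.37% of all genes tested, and Birc5 missed (adjusted p = 0.0514). Mybl2, a transcription factor of mitotic genes, had 410 and 392 with Pdk3, against 169 and 138 with Mock (1.39, limma, adjusted p = 7.81e-05). Incenp and Aurkb, subunits of the chromosomal passenger complex that Kif20a carries, rose 1.86-fold and 1.83-fold. Prc1, the bundling protein to which Kif4a binds, rose 1.40-fold. Of 13 tubulin genes, 8 were higher, Tubg1 among them, and 0 lower with a median of 0.27, beside 11.7% higher over the whole table. The products of all but Tubg1 form the track. Floored at counting noise 6 were higher, without a filter on low values 4, and without an intensity trend 2. Tubb5 had 1355 and 1315 with Pdk3, against 1079 and 1087 with Mock (0.30, limma, adjusted p = 0.000192), and Tuba4a, Tubb4b and Tubb6 had log2 fold changes of 0.31, 0.27 and 0.29.

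Genes that work with the transport and ciliary kinesins did not rise together. The counts of each list stand beside 11.7% higher and 11.3% lower over the whole table. Of 13 cargo adaptors 0 were higher and 3 lower, with a median of -0.04. None of the 3 was called without an intensity trend, and 9 were lower when scaled to ribosomal protein genes. Plekhm2, which links lysosomes to Kif5b, had 740 and 751 with Pdk3, against 920 and 876 with Mock (-0.27, limma, adjusted p = 0.00120). Borcs6, of a lysosomal complex that acts upstream of it, had a log2 fold change of -0.33, and Mapk8ip1 of -0.18, which missed the threshold when floored at counting noise (adjusted p = 0.0637). Of 21 tested genes of dynein and dynactin, the opposite motor, 1 was higher (Dynll2, 0.16) and 1 lower (Dync1h1, -0.06), with a median of 0.03. Both calls were lost when low genes were kept in and when limma had no intensity trend, and Dync1h1 also missed the stricter rule (adjusted p = 0.104). Of 27 tested genes of intraflagellar transport and hedgehog signalling, Ccp110 was higher and 4 were lower, with a median of -0.04 (0 higher and 2 lower without an intensity trend). The lower ones were Ift46 (-0.35), Ift140 (-0.26), Smo (-0.28) and Ttc21b (-0.21), the last not when floored at counting noise (adjusted p = 0.0780).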

How the data were processed

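Each library was made with a stranded mRNA kit from 1 µg of total RNA, per the labels' protocols. The submitters' processing notes list STAR 2.6.1d, Trimmomatic 0.39, featureCounts 1.6.5, DESeq2 1.26.0, FastQC and the build rn6, without settings. The deposited values were treated as a score, since the authors' read counts had been divided by a factor per library and rounded. The factors, read from skipped or repeated whole numbers, were 0.9246 and 0.9627 for Pdk3 1 and 2, and 1.0255 and 1.0567 for Mock 1 and 2.

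Values were tested with limma 3.58.1 (R 4.3.3, eBayes with an intensity trend, two-sided) after adding a pseudocount of 1 and taking log2, on which scale low genes change less than in truth. Genes needed 10 or more in 2 or more libraries. P-values were adjusted over all genes by Benjamini-Hochberg (threshold 0.05), and ± marks standard errors. The stricter rule took, per gene, whichever was larger, limma's p or an exact binomial p on reads summed per group, which covers counting error only. The fit was tested on simulated data with counting noise only, a wider spread than within these groups, so that test does not cover the spread seen here.

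Kinesin genes, classes, gene lists and motifs were chosen with earlier results of these data known. Every kinesin gene is named, and from each partner list up to 4 genes that passed in the commoner direction and 2 in the rarer, by smallest p. Alternatives were other pseudocounts, filters, scalings and variance models, a term for replicate number, and the omission of each library. Protein sequences were not used here.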

Additional observations from a re-analysis of the deposited data

How the results depend on the processing

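The 11 mitotic calls and the rise of Kif24 held under every alternative that kept 4 libraries, except that limma without an intensity trend called 9 mitotic genes. With 1 library left out, the fit had 1 residual degree of freedom, and only sizes of change are given here. The median then ranged from 0.0791 to 0.1335 for the kinesin genes and from 0.84 to 0.92 for the mitotic genes. It ranged from -0.0677 to 0.0195 for the transport genes and from -0.0073 to -0.0048 for all genes. The log2 fold change then ranged from -0.23 to 0.34 for Kif5c, from -0.0095 to 0.0434 for Kif13a, from -0.0433 to 0.0208 for Kif1b, from -0.21 to 0.0194 for Kif1a, from -0.37 to 0.47 for Kif17 and from -0.0270 to 0.0267 for Kif7.

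The replicate numbers pair libraries only by name (correlation of same-numbered deviations 0.00356 over 10583 genes). With the replicate block 13 kinesin genes were higher, 11 of them mitotic, and 2 transport genes were lower, Kif16b added. It changed no other count named here by over 1.5 times. With a pseudocount of 8, a minimum value of 50 or scaling by a trimmed mean of M values, 2 transport genes were lower as well, and with the last 2 settings 1 other gene, Kif26b, was higher.

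Without an intensity trend, 1 kinesin gene was lower, 0 transport genes were higher and 0 ciliary genes lower. Over all genes 526 were higher and 325 lower. In the lists, 0 further motors and light chains, 0 cargo adaptors and 0 dynein genes were lower, 0 dynein and 0 intraflagellar genes were higher, 2 intraflagellar genes were lower and 2 tubulins higher. Without a filter on low values, 737 genes were higher and 539 lower, 0 dynein genes were higher and 0 lower, 4 tubulins were higher, and the medians were 0.00 for ciliary, 0.17 for other and -0.0145 for all genes. With a minimum value of 50, 2 dynein genes were higher and the median of all genes was -0.0031. With the trimmed mean, 3 dynein genes were higher and 0 lower, the median of all genes was 0.0036 and Kif7 turned to 0.0102. Floored at counting noise, 963 of all genes and 0 dynein genes were lower.

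Scaled to ribosomal protein genes, 942 genes were higher and 3604 lower, with a median of -0.0929. Of kinesin genes 7 were lower, 5 transport genes (0 higher) and 1 other gene among them, and medians were -0.0210 for all kinesin genes, 0.82 for mitotic, -0.0837 for transport, -0.0297 for ciliary and -0.0142 for other genes. In the lists, 5 further motors and light chains, 9 cargo adaptors, 4 dynein genes (0 higher) and 7 intraflagellar genes were lower. Log2 fold changes turned to -0.0261 for Kif21a, -0.0311 for Kif3c, -0.0307 for Kif5c and -0.0616 for Kif1c. They turned to -0.0696 for Kif13a, -0.0159 for Kif3b and -0.0297 for Kif17. None of these genes was called before, and some of them were called lower under this scaling. This scaling lowers all genes alike. The cause of the other changes was not tested. The low counts of Kif5a, Kif5c and Kif17 came with wide intervals, and those of Kif6, Kif9, Kif12, Kif19 and Kif27 were under the filter.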
